A study of Mus musculus with 6 samples.

Results

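The 10 genes described here carry glucose and lactate across the membranes of neural stem cells (NSCs) and open the way of glucose into metabolism. They are Slc2a1, Slc2a3, Slc2a8 and Slc2a12 (facilitative glucose transporters), Slc16a1 and Slc16a3 (monocarboxylate transporters), Hk1 and Hk2 (hexokinases), Txnip and Pfkfb3. They were picked by symbol, and all 10 were found among the 53110 genes that the deposited expression table lists. RNA-seq compared primary cortical NSCs of 2 genotypes, WT and Setd5+/-, the latter heterozygous for a mutation of the chromatin regulator SETD5 made with CRISPR-Cas9. All cultures came from the embryonic mouse cortex and grew attached to Matrigel at 21% oxygen, in a medium that held added glucose, insulin, bFGF and EGF.

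The labels name 3 samples per genotype. Samples of the same genotype differed by less than sampling noise. Per degree of freedom, a chi-square over read pairs gave 0.961 to 0.986 for the 6 pairs of samples of the same genotype and 34.9 to 35.0 for the 9 pairs of different genotype. Within a genotype the headings of their columns carried the same index and lane, and those of the mutant samples the name of 1 clone. Each genotype was therefore counted as 1 library, with 30004634 counted reads in WT and 21435546 in Setd5+/-, and the genotype cannot be told apart from the clone, the library, its index and its lane. No difference below has a replicate check, the 95% intervals cover counting error only, and the p-values compare the reads of 2 libraries. Setd5 itself stood at 2498, 2749 and 2780 normalized counts in WT and at 2151, 1990 and 2055 in the Setd5+/- samples, a log2 change of −0.37 (−0.44 to −0.31). A normalized count is the number of reads on a gene divided by a size factor of the sample, and a log2 change is the Setd5+/- level over the WT level.

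Glucose enters a cell down its gradient through carriers of the SLC2A (GLUT) family. GLUT1, from Slc2a1, is the main carrier of dividing cells and of the blood-brain barrier, and GLUT3, from Slc2a3, is a high-affinity carrier known from neurons. Hexokinase then traps glucose inside the cell as glucose 6-phosphate, and lactate leaves or enters with a proton through the SLC16A carriers MCT1 (Slc16a1) and MCT4 (Slc16a3). TXNIP is an arrestin-like protein that binds thioredoxin and holds glucose carriers back from the cell surface, and PFKFB3 makes the fructose bisphosphate that activates phosphofructokinase. The transcription of Txnip is known to be driven by the glucose-sensing factors MondoA and ChREBP with their partner MLX, which bind paired E-box-like sequences called carbohydrate response elements. Slc2a1, Slc2a3, Slc16a3, Hk2 and Pfkfb3 are known targets of the hypoxia-inducible factors, which bind the core ACGTG or GCGTG. Only the form ACGTG was searched and marked here.

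The promoters of 4 members are shown because they carry these known sequences and because the genes cover each outcome of the comparison: Txnip and Pfkfb3 were higher in Setd5+/- NSCs, Slc2a1 was lower, and Slc16a3 did not pass the test. Each is the 250 bases before the RefSeq start on GRCm38.p6, in lower case and in the direction of the gene. Capitals mark the paired carbohydrate response element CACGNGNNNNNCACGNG in Txnip (chr3:96557707-96557956, + strand) and the core ACGTG in Pfkfb3 (chr2:11553930-11554179, − strand), Slc2a1 (chr4:119108495-119108744, + strand) and Slc16a3 (chr11:120948817-120949066, + strand).
Txnip: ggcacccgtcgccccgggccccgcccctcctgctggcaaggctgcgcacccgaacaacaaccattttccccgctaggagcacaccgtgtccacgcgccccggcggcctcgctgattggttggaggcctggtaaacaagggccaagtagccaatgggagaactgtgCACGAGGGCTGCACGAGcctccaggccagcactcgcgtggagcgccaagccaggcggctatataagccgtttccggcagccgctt
Pfkfb3: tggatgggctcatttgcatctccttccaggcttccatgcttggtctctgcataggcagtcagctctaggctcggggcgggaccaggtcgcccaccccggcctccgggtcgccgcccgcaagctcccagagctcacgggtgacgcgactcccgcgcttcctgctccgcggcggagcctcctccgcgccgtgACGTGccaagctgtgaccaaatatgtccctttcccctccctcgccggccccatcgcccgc
Slc2a1: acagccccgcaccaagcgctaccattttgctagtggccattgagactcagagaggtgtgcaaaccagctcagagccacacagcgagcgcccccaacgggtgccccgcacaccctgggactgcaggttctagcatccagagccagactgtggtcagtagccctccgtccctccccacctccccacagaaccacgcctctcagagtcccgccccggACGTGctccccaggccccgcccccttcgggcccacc
Slc16a3: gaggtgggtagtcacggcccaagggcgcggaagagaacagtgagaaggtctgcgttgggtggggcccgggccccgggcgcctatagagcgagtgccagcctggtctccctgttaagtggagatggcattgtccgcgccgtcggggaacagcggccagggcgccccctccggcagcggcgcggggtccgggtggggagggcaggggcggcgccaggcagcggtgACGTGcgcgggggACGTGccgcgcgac

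RefSeq promoters were held for 9 of the 10 genes, in 11 entries, since Pfkfb3 and Hk1 each had a second start. Both motifs were searched on both strands over the same 250 bases of 32851 promoters. The paired element occurred in 15 of them (0.0457%), and among the 10 genes in Txnip only. The core ACGTG occurred in 5444 (16.6%), and in 6 of the 11 entries, which belonged to Pfkfb3, Slc16a1, Slc2a1, Hk2 and Slc16a3. A match to ACGTG includes the E-box CACGTG, which contains the core on both strands and stands at the second start of Pfkfb3 and in Slc16a1. These matches describe letters in a window. Genes with ACGTG were found higher (Pfkfb3), lower (Slc2a1) and not past the threshold (Slc16a1, Slc16a3, Hk2), and the form GCGTG was not searched.

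Among the 10 genes, 4 were higher and 2 lower in Setd5+/- NSCs past the threshold, and 4 did not pass it. Slc2a3, Pfkfb3 and Txnip were higher by 2.73-fold to 3.11-fold, Slc2a8 was higher by 1.33-fold, Slc2a1 was lower by 1.91-fold and Slc2a12 by 1.38-fold. The threshold was an adjusted p under 0.05 (limma with Benjamini-Hochberg adjustment over the 16266 genes that averaged 10 or more normalized counts, a filter that all 10 passed). It was passed by 61.3% of all genes tested, 30.3% higher and 30.9% lower, so that 6 of 10 is close to this background. A change of at least 2-fold was seen in 3 of the 10, all higher, against 16.4% of all genes (10.3% higher and 6.14% lower). The samples of the genotypes did not overlap in 6 of the 10, against 65.3% of all genes (32.4% higher and 32.9% lower). The median log2 change of the 10 was 0.02, beside −0.019 over all genes tested.

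**Figure D1:**
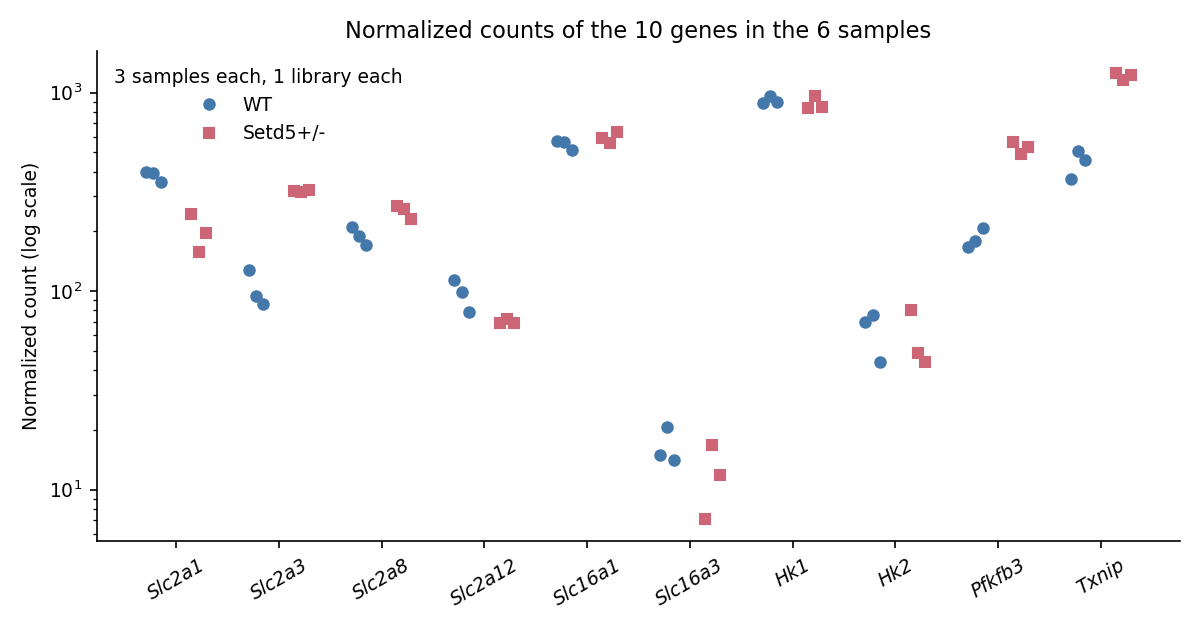
Normalized counts of the 10 genes in the 6 samples, on a log axis, with WT as circles and Setd5+/- as squares. The points of Slc2a3, Pfkfb3 and Txnip lie higher in all 3 Setd5+/- samples, those of Slc2a1 lie lower, and those of Hk1 and Slc16a1 mix.

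The glucose transporters moved in different directions. Slc2a1 (chromosome 4, 119108711 to 119137983, + strand, GRCm38) had 398, 394 and 354 normalized counts over the WT samples, and 244, 158 and 197 over the mutant samples. Its lowest WT sample lay above its highest mutant sample. The log2 change was −0.94 (−1.14 to −0.73, adjusted p = 5.9e-08 from limma), and 6.92% of the genes tested fell as far or further. It missed the 2-fold line by little, with a fitted log2 change of −1.11 without the first Setd5+/- sample. An antisense gene, Gm12868, shares 105 exonic bases with Slc2a1 and stood at 18.8 normalized counts in WT against 5.56 in Setd5+/- NSCs. Reads in those bases cannot be assigned to either gene here.

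Slc2a3 (chromosome 6, 122727809 to 122801640, − strand) had 128, 94.3 and 86.1 normalized counts over the WT samples, and 319, 314 and 324 over the mutant samples. All 3 mutant samples were above all 3 WT samples. The change was 3.11-fold (2.62 to 3.69), or 1.64 on the log2 scale (1.39 to 1.88, limma adjusted p = 1.3e-11), a size that 4.51% of the genes tested reached or exceeded on the higher side. A processed pseudogene, Gm4482, lies within the locus but shares no exonic base with Slc2a3, and stood at 92.8 normalized counts in WT against 78.2 in Setd5+/- NSCs.

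The log2 changes of Slc2a3 and Slc2a1 differed by 2.57 (2.25 to 2.89). Per kb of exon, Slc2a1 fell from 109 normalized counts in the WT library to 57.0 in the mutant library, while Slc2a3 rose from 14.2 to 44.1. Slc2a3 thus took 11.5% of the summed level of the pair in WT (10.4% to 13.4% over the samples) and 43.6% in Setd5+/- NSCs (38.7% to 49.0%). With the longest coding transcript as the length, its share was 18.1% in WT and 56.8% in Setd5+/-. Which of the pair was the higher in the mutant library therefore depended on the length used: Slc2a1 led by exon length, and Slc2a3 led by transcript length with 80.6 against 61.3 normalized counts per kb.

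Slc2a8 encodes GLUT8, a carrier held mostly on membranes inside the cell. The gene (chromosome 2, 32972990 to 32982083, − strand) had 211, 189 and 171 normalized counts over the WT samples, and 268, 260 and 231 over the mutant samples. The groups did not overlap, and the log2 change was 0.41 (0.19 to 0.63, limma adjusted p = 0.002).

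Slc2a12 encodes GLUT12, a carrier related to the insulin-responsive GLUT4. The gene (chromosome 10, 22645011 to 22704285, + strand) had 114, 98.4 and 78.7 normalized counts over the WT samples, and 69.1, 72.6 and 69.1 over the mutant samples, a log2 change of −0.47 (−0.83 to −0.10, limma adjusted p = 0.03). This call was lost when WT sample 1 was left out (limma adjusted p = 0.18, fitted log2 change −0.32), and likewise without WT sample 2 (0.082), Setd5+/- sample 1 (0.056) or Setd5+/- sample 3 (0.056). It was also lost with no filter on low values (limma adjusted p = 0.06). It also shares 407 exonic bases with Tbpl1 on the other strand, a gene at 296 normalized counts in WT against 287 in Setd5+/- NSCs. The library kit named in the labels does not mark strand, so reads in the shared bases cannot be told apart.

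**Figure D2:**
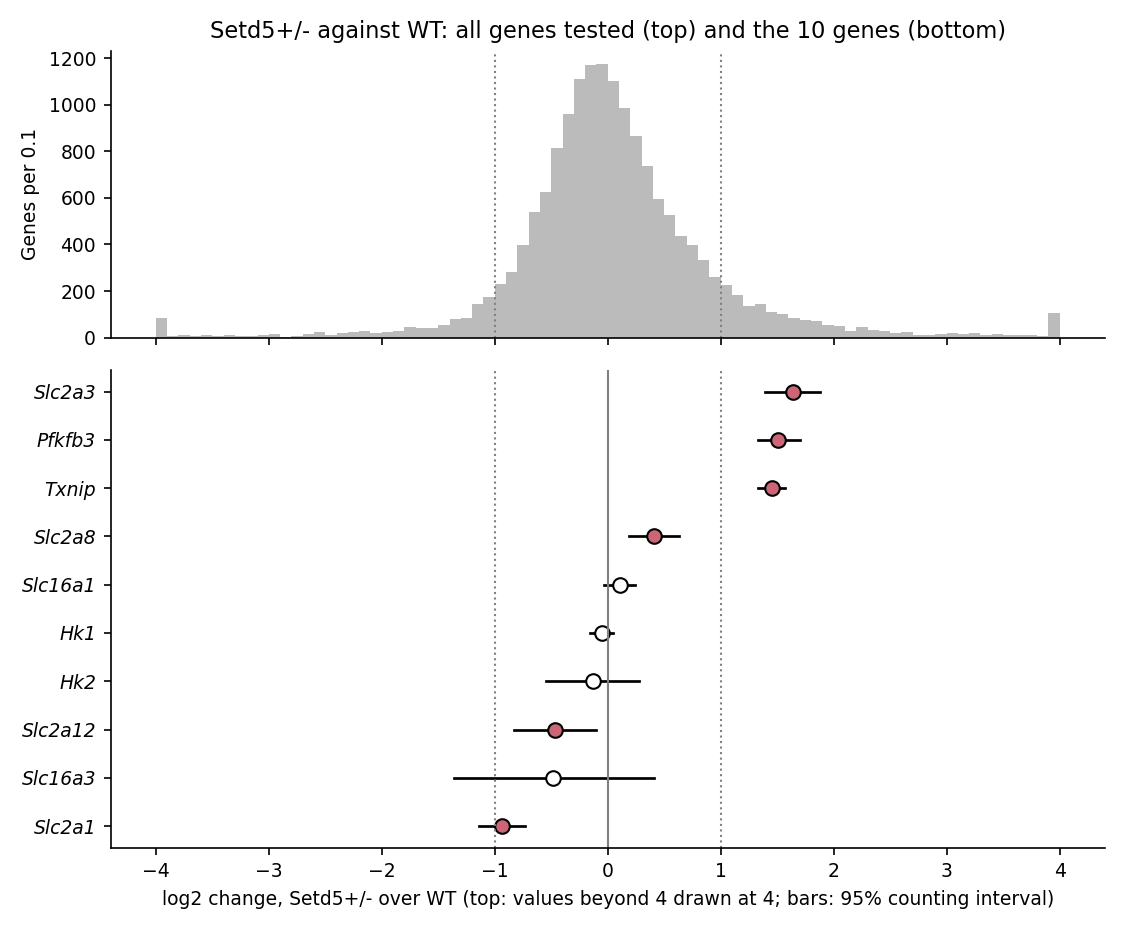
Upper panel: histogram of the fitted log2 change, Setd5+/- over WT, of all 16266 genes tested, in steps of 0.1. Lower panel: log2 change of the 10 genes with 95% counting intervals, filled where the limma test passed; dotted lines mark a 2-fold change. Slc2a3, Pfkfb3 and Txnip lie beyond the upper line and Slc2a1 at −0.94 lies just inside the lower one.

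The other carriers of the family were read from a list of 8 genes, of which 4 passed the filter on low values. All 4 were higher in Setd5+/- NSCs past the threshold, against 30.3% of all genes, with a median log2 change of 1.49. Slc2a10, which encodes GLUT10, had 10.8 normalized counts in WT against 158 in Setd5+/- NSCs (log2 change 3.88, 3.21 to 4.54), with 39 WT reads behind the first value. Slc2a13, the proton-coupled inositol carrier, had 64.6 and 232 (1.84, 1.54 to 2.15). Slc2a9 had 67.1 and 100.5, and Slc2a6 had 16.8 and 35.3. Of the other 4, Slc2a4 had 6 WT and 14 mutant reads, Slc2a2 had 0 and 2, and Slc2a5 and Slc2a7 had none. Summed over the whole family, the level per kb of exon was 235 normalized counts in WT against 301 in Setd5+/- NSCs. Slc2a1 made up 46.4% of this sum in WT and 18.9% in the mutant library, Slc2a3 made up 6.03% and 14.6%, Slc2a10 made up 1.28% and 14.7%, and Slc2a8 made up 25.2% and 26.2%. By transcript length the share of Slc2a1 was 39.5% and 15.1%.

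Of 7 genes of sodium-coupled glucose carriers, 2 passed the filter. Slc5a9 was lower in Setd5+/- NSCs, with 27.6 normalized counts in WT against 8.74 in the mutant, and passed the filter only through the WT samples. Slc5a2 had 115 and 127 and did not pass the threshold. The remaining 5 had at most 7 reads in a library.

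**Figure D3:**
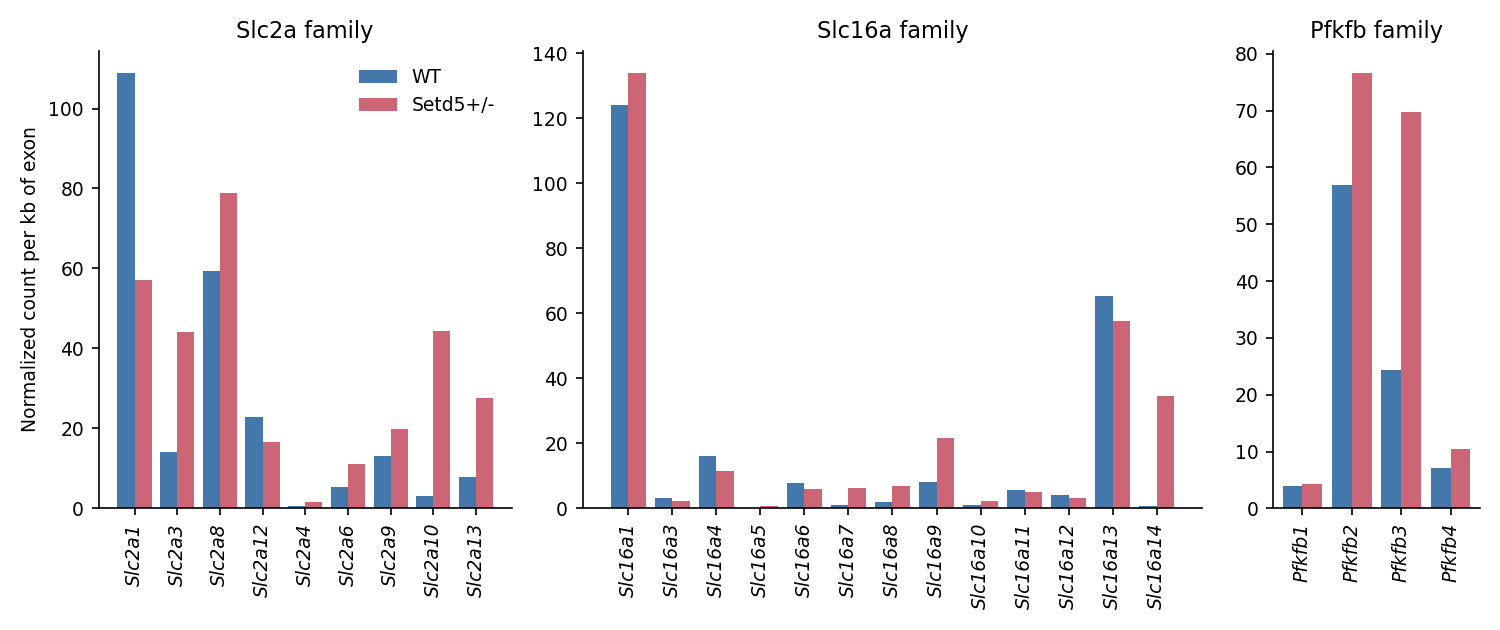
Mean normalized count per kb of exon in the WT library and in the Setd5+/- library for the Slc2a, Slc16a and Pfkfb families; not every gene of a family is drawn, and the 3 panels have their own scales. The bar of Slc2a1 falls from 109 to 57.0 while those of Slc2a3, Slc2a10 and Slc2a13 rise, and the bar of Pfkfb3 rises from 24.4 to 69.8.

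Neither lactate carrier among the 10 genes passed the test. Slc16a1 (chromosome 3, 104638668 to 104658462, + strand) had 572, 564 and 514 normalized counts over the WT samples, and 590, 555 and 631 over the mutant samples. The groups overlapped, and the interval of the log2 change, 0.11, ran from −0.03 to 0.24 (limma adjusted p = 0.19). Slc16a3 (chromosome 11, 120948480 to 120960868, + strand) was low throughout, with 14.9, 20.7 and 14.1 in WT and 7.15, 16.7 and 11.9 in the Setd5+/- samples. Its change of −0.48 rests on 60 WT reads and 30 mutant reads, and the interval, −1.36 to 0.41, leaves room for a fall of more than 2-fold (limma adjusted p = 0.29). MCT4, its product, is the carrier known for lactate export in strongly glycolytic cells, and Slc16a3 made up 2.44% of the summed level per kb of the pair in WT and 1.65% in Setd5+/- NSCs. The log2 changes of Slc16a3 and Slc16a1 differed by −0.58 (−1.48 to 0.31).

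The other SLC16 carriers, listed with the chaperones that bring MCTs to the membrane, comprised 14 genes, of which 13 passed the filter. There were 7 higher and 1 lower past the threshold (30.3% and 30.9% of all genes), with a median log2 change of 0.29. Of the 7, Slc16a14, Slc16a8 and Slc16a10 averaged under 10 in WT (2.76, 4.7 and 7.73). They passed the filter only through the mutant samples, so the filter itself favoured a higher outcome for them. Slc16a9 had 30.9 normalized counts in WT against 83.0 in Setd5+/- NSCs (log2 change 1.42, 0.96 to 1.89). A pseudogene of near-identical sequence could take up some of the reads of Slc16a9. The monocarboxylate carriers Slc16a7 and Slc16a8, which are not among the 10 genes, belonged to the 7. Slc16a7 had 13.8 and 75.1 (2.44, 1.81 to 3.07, limma adjusted p = 8.9e-09). Slc16a8 had 4.7 and 15.5 (1.72, 0.57 to 2.87, limma adjusted p = 0.017), from 17 WT reads and 39 mutant reads. Slc16a14 had 2.76 and 115 (5.38, 4.11 to 6.65), with 10 WT reads; it lies on chromosome 1, where the median of 1044 genes tested was 0.53, whereas none of the 10 genes is on that chromosome. Basigin (Bsg), the chaperone of MCT1 and MCT4, had 1890.3 and 2318 (0.29, 0.22 to 0.36). Emb, the chaperone embigin, had 102 and 114 and did not pass.

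Neither hexokinase passed the test, with a narrow interval for Hk1 and a wide one for Hk2. Hk1, the main isoform of brain, which docks on mitochondria (chromosome 10, 62268855 to 62379908, − strand), had 889, 965 and 894 normalized counts over the WT samples, and 840, 957 and 848 over the mutant samples, a log2 change of −0.05 (−0.16 to 0.05, limma adjusted p = 0.41). Hk2, the isoform known for induction by insulin and hypoxia (chromosome 6, 82725025 to 82774454, − strand), had 69.7, 76.1 and 43.9 in WT and 79.9, 48.8 and 44.1 in the Setd5+/- samples. Its samples overlapped over most of their range, and the change of −0.13 (−0.55 to 0.28, limma adjusted p = 0.63) turned to 0.01 without WT sample 2 and to 0.02 without Setd5+/- sample 3. Per kb of exon Hk1 stood at 107 and 103 normalized counts and Hk2 at 10.6 and 9.65, so that Hk2 made up 8.98% of the pair in WT and 8.54% in Setd5+/- NSCs. The log2 changes of Hk2 and Hk1 differed by −0.08 (−0.51 to 0.35). An antisense gene, Hk1os, shares 157 exonic bases with Hk1 and stood at 6.35 normalized counts in WT against 13.1 in Setd5+/- NSCs. Reads in those bases cannot be assigned to either gene here. Of 5 other genes of glucose phosphorylation, only the ADP-dependent kinase Adpgk passed the filter, with 376 and 438 normalized counts (0.22, limma adjusted p = 0.053). The others, Hk3 and Hkdc1 among them, had at most 14 reads in a library.

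Pfkfb3 (chromosome 2, 11471433 to 11554077, − strand) had 167, 179 and 209 normalized counts over the WT samples, and 564, 491 and 529 over the mutant samples. The groups were far apart, by 2.86-fold or 1.51 on the log2 scale (1.33 to 1.70, limma adjusted p = 9.7e-14), and 5.31% of the genes tested were higher by as much or more. Among the 4 isoforms of this kinase and phosphatase family, Pfkfb3 made up 26.4% of the level per kb of exon in WT (24.0% to 28.9% over the samples) and 43.3% in Setd5+/- NSCs (40.6% to 45.1%). Pfkfb2 had 413 and 557 normalized counts (0.43, 0.28 to 0.58) and was higher past the threshold, but by less than the median gene of its chromosome, chromosome 1 (0.53). Pfkfb1 had 15.5 and 17.1, Pfkfb4 had 35.1 and 50.8, and neither passed. Tigar, which encodes a phosphatase of the same fructose bisphosphate, was lower with 189.6 and 136 (−0.48, −0.74 to −0.22).

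Txnip (chromosome 3, 96557957 to 96561883, + strand) had 367, 506 and 459 normalized counts over the WT samples, and 1254, 1163 and 1220 over the mutant samples. Every mutant sample was above every WT sample by more than 2-fold. The change was 2.73-fold, or 1.45 on the log2 scale (1.33 to 1.57, limma adjusted p = 2.7e-15), and 5.63% of the genes tested were higher by as much or more. On the other strand the noncoding gene Gm15441 shares 606 exonic bases with Txnip, and it stood at 101 normalized counts in WT against 307 in Setd5+/- NSCs. Reads in the shared bases cannot be assigned to either gene here.

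The relatives, partners and regulators of TXNIP included changes in both directions. Of 12 genes, 11 passed the filter, with 4 higher and 4 lower past the threshold (30.3% and 30.9% of all genes). Their median log2 change was 0.05. Arrdc4, the closest arrestin-domain relative of Txnip and another known target of MondoA, had 187 normalized counts in WT against 487 in Setd5+/- NSCs, a log2 change of 1.38 (1.19 to 1.57). Of the other relatives tested, Arrdc1 was higher, with 18.8 and 41.3 (1.14, 0.52 to 1.75). Arrdc3 had 248 and 279.6, Arrdc2 had 87.2 and 75.1, and neither passed. Txn1, the cytosolic thioredoxin that TXNIP binds, was lower, with 1287 and 493 (−1.38, −1.51 to −1.26); a pseudogene of near-identical sequence could take up some of its reads. Mlxip, which encodes MondoA, had 383 and 396 and did not pass. Its partner Mlx was lower with 333 and 235 (−0.51), and Mlxipl, which encodes ChREBP, was higher with 11 and 26.6 (1.27, 0.48 to 2.06).

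In order of level per kb of exon, the WT library ran from Txnip (142 normalized counts per kb) through Slc16a1 (124), Slc2a1 (109), Hk1 (107), Slc2a8 (59.4), Pfkfb3 (24.4), Slc2a12 (22.9), Slc2a3 (14.2) and Hk2 (10.6) to Slc16a3 (3.11). Neighbours that could not be told apart by their counting intervals were Slc2a1 and Hk1, and Pfkfb3 and Slc2a12. In the Setd5+/- library the order was Txnip (388), Slc16a1 (134), Hk1 (103), Slc2a8 (78.8), Pfkfb3 (69.8), Slc2a1 (57.0), Slc2a3 (44.1), Slc2a12 (16.6), Hk2 (9.65) and Slc16a3 (2.24), with only Slc2a8 and Pfkfb3 not told apart. Slc2a1 went from the third place to the sixth. With the longest coding transcript as the length, Hk1 stood at 214 and 206 and led the WT order, since its merged exons are longer than its longest coding transcript.

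The steps that use glucose 6-phosphate included changes in both directions. Of 17 genes of the pentose phosphate pathway, glycogen turnover and hexosamine synthesis, all tested, 5 were higher and 9 lower past the threshold (30.3% and 30.9% of all genes), with a median log2 change of −0.26. Gpi1, which turns glucose 6-phosphate into fructose 6-phosphate, had 1539.9 normalized counts in WT against 663 in Setd5+/- NSCs (−1.22, −1.33 to −1.11). Gfpt2, an isoform of the first enzyme of hexosamine synthesis, had 681 and 338 (−1.01). Pgm2l1, which makes glucose bisphosphate, had 75.6 and 36.9 (−1.03). H6pd, the glucose 6-phosphate dehydrogenase of the endoplasmic reticulum, rose from 40.9 to 108 (1.40, 1.00 to 1.81).

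Below hexokinase, 14 of 15 glycolysis genes passed the filter. Past the threshold 3 were higher and 11 lower (30.3% and 30.9% of all genes), with a median log2 change of −0.70. The liver isoform of phosphofructokinase, Pfkl, had 494 normalized counts in WT against 203 in Setd5+/- NSCs (−1.28, −1.48 to −1.09), while the platelet isoform, Pfkp, had 147 and 321 (1.13, 0.91 to 1.35). Both subunits of lactate dehydrogenase were lower: Ldha had 1163 and 457 (−1.35, −1.48 to −1.22) and Ldhb had 218 and 76.6 (−1.51, −1.82 to −1.19). A near-identical pseudogene exists for 9 of these 15 genes, Gpi1, Ldha and Ldhb included, so that their counts may miss reads, whereas none of the 10 transport and kinase genes has one.

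**Figure D4:**
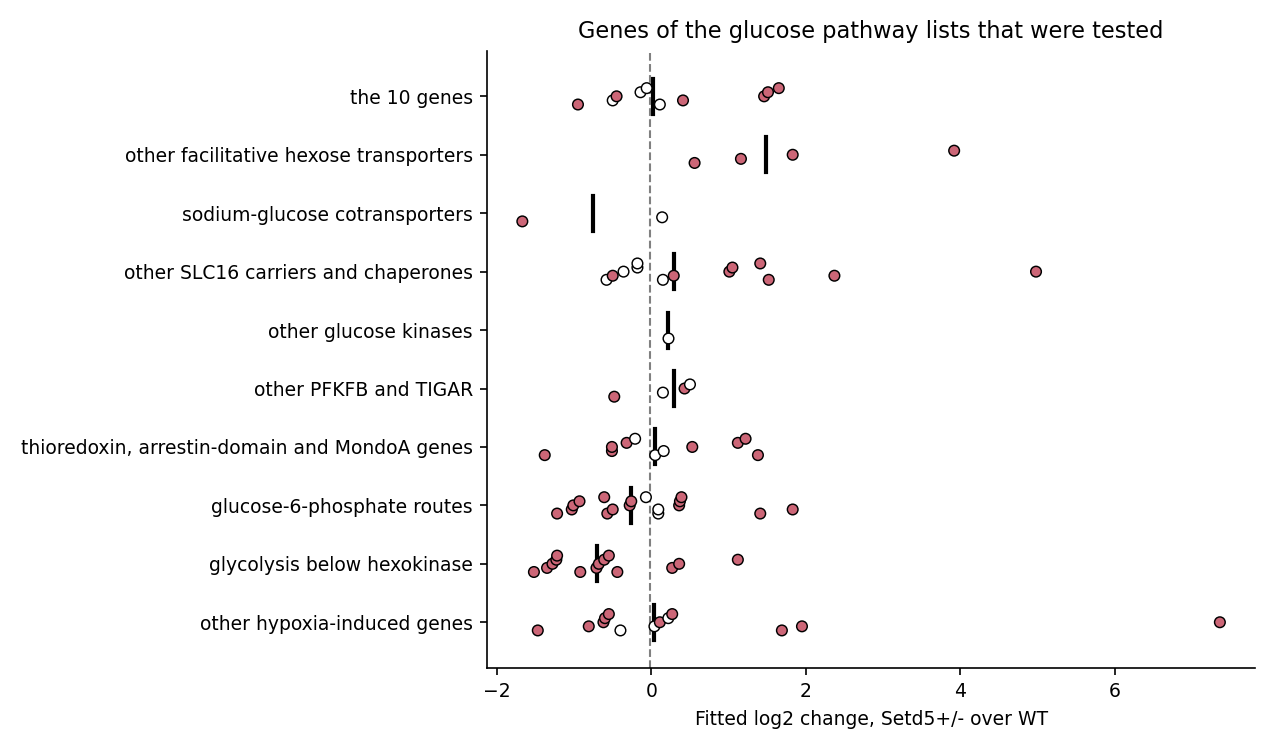
Fitted log2 change, Setd5+/- over WT, of the tested genes of each list, filled where the limma test passed; black bars are list medians and the dashed line is the median of all genes tested. Points of the glycolysis list lie mostly left of 0 with a median of −0.70, and the 10 genes spread over both sides. Gpi1 is drawn in 2 lists.

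Other genes known to respond to hypoxia included changes in both directions. Of 16 genes, 13 passed the filter, with 5 higher and 5 lower past the threshold (30.3% and 30.9% of all genes). Their median log2 change was 0.04. Vegfa, the vascular growth factor, had 698 normalized counts in WT against 2257 in Setd5+/- NSCs (1.69, 1.60 to 1.79), and Ero1l, an oxidase of the endoplasmic reticulum, had 142 and 550.0 (1.95, 1.75 to 2.16). Ndrg1 had 2 reads in the WT library and 575 in the mutant library, and passed the filter only through the mutant samples. Pdk1, the kinase that shuts pyruvate dehydrogenase, was lower with 279.9 and 101 (−1.47, −1.75 to −1.20). The members of the 10 that belong to the same known response were likewise mixed, with Slc2a3 and Pfkfb3 higher, Slc2a1 lower and Hk2 and Slc16a3 not past the threshold.

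Markers of cell identity also differed between the libraries, and their part in these results was not tested. The neural stem cell markers were all present, with 8 of 8 tested and a sum of 73571 to 73755 normalized counts over the WT samples and 53106 to 53777 in the Setd5+/- samples; the drop in the sum is that of Fabp7, at 36015 and 11489.8. By count, 3 of the 8 were higher and 4 lower past the threshold, with Sox2 at 3119 and 2732, Nes at 2378 and 1951, Vim at 9095 and 13822, and Pax6 at 402 and 529.7. The astrocyte markers (5 of 5 tested) summed to 5410.2 to 5540.1 and to 2419 to 2659, and most of the sum was Slc1a2, at 4678 and 1225. By count, 3 of the 5 were higher and 2 lower past the threshold, with Gfap at 17.1 and 263, S100b at 339 and 737, and Aldh1l1 at 380.4 and 147. The oligodendrocyte lineage markers (6 of 6 tested) summed to 40197 to 41063 and to 22247 to 23073, with Sox10 at 298 and 1.59. The neuron markers (4 of 6 tested) summed to 10177 to 10549 and to 12469 to 12591, nearly all of it Map2. By count, 1 of the 4 was higher (Map2) and 2 lower past the threshold, with a median log2 change of −1.06. The lower ones were Dcx, at 248 and 26.2, and Snap25, at 19.1 and 5.56, which passed the filter only through the WT samples. Neurod1 was at 0. Of the markers of endothelial cells, which are rich in Slc2a1, Pecam1, Cldn5 and Cdh5 had at most 5 reads in either library. Kdr, with 23 WT reads and 45 mutant reads, was the 1 gene of its list that could be tested. It was higher (6.35 and 17.9 normalized counts, limma adjusted p = 0.016), but it passed the filter only through the mutant samples. Acta2, with 28 WT reads and 2 mutant reads, did not pass the filter. The 8 endothelial and mesenchymal markers together summed to 23.2 to 24.9 and to 25.0 to 31.0. Of the microglia markers, Cx3cr1, Ptprc and C1qa were at 0, and the 5 summed to 78.6 to 117 and to 48.9 to 70.3. Nearly all of this sum was Csf1r, at 98 and 53.6, the 1 marker of the list that could be tested. It was lower past the threshold (limma adjusted p = 0.0005). The proliferation markers (6 of 6 tested) summed to 5247 to 5422 and to 6418 to 6546, with 3 higher and 2 lower past the threshold: Mki67 had 1821 and 2327, Top2a had 1848 and 2653, and Pcna had 101 and 29.4. In bulk RNA, fewer cells of a type and less RNA per cell cannot be told apart.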

How the data were processed

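RNA-seq of 6 samples was analysed, 3 labelled WT and 3 labelled Setd5+/-, from NSCs at 21% oxygen. Per the labels, RNA libraries were made with a TruSeq kit, and the submitters' processing notes name Trimmomatic, Bowtie2, DESeq2 and mm10. The counting program and any strand setting are not given in the sources used here. The values that the authors deposited are DESeq2 normalized counts, many of which lacked the decimal point. Each was placed again by the worth of 1 read in its sample (0.827 to 0.829 normalized counts in WT, 1.19 in Setd5+/-), which left a single choice in 31549 of 52438 genes. Of the genes with several choices, the one with most decimals gave the deposited mean in 19773, and in 1116 that mean settled on fewer. The restored mean equalled the deposited one in all 52438, a check that is independent of the choice only where there was a single one. On simulated data 100% of 29502 values of 4917 genes were recovered. Another 672 genes carried no values. The deposited columns with the authors' own comparison were not used, apart from the mean.

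On the scale of log2(normalized count + 1), genes that averaged 10 or more were fitted in R 4.3.3 by lmFit of limma 3.58.1 and tested by eBayes with a trend, with Benjamini-Hochberg adjustment at 0.05. This test stands in for a count test, since raw counts were not used here. Fold changes are ratios of genotype means. Fitted changes are on the log2(value + 1) scale and can be smaller or larger than the ratio in low genes. They were 4.98 against 5.38 for Slc16a14 and −0.58 against −0.43 for Slc16a12. The variance within a genotype was 1.96 times the mean, which set the 95% counting intervals. Counted reads per sample ran from 9995980 to 10004948 in WT and from 7143309 to 7146147 in Setd5+/-. In simulated data with 16287 genes tested the limma fit recovered 41 of 42 genes changed by −2 on the log2 scale, 33 of 46 by −1, 39 of 49 by 1 and 49 of 50 by 2, and called 3 unchanged genes. The simulated samples held sampling noise only, so these counts do not cover differences between clones, libraries or lanes. Positions and lengths (exons merged, or the longest coding transcript) are from GENCODE M21, build GRCm38, also called mm10. Near-identical copies were found with BLAST 2.17.0 at 95% identity over at least 300 bases. Promoters are from RefSeq (GRCm38.p6).

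The members, the gene lists and the promoter motifs were chosen with earlier results of these data known. All 10 members are given in full. From each other list the text names genes past the threshold and 2-fold that averaged 50 or more, up to 3 per direction. Other genes were named after their values were seen. They include Slc2a9, Slc2a6, Slc5a9, Slc5a2, Slc16a7, Slc16a8, Slc16a10, Bsg, Emb, Adpgk, the Pfkfb genes, Tigar, Arrdc1, Arrdc2, Arrdc3 and the Mlx genes. Of the genes this rule picked, 1 is not reported here. Alternatives changed the pseudocount (0.5 or 5), the filter (none, or a mean of 50), the scaling, the call rule, the replicate block and single samples.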

Additional observations from a re-analysis of the deposited data

How the results depend on the processing

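With an absolute log2 change of at least 1 also required, 3 of the 10 genes passed, 2696 of all genes (1668 higher, 1028 lower) and 28 of the 97 genes of the other lists, where 60 had passed. The count of all genes at 2-fold was 5541 with no filter on low values and 1620 with a mean of at least 50, against 2666. Slc2a12 kept a fitted log2 change of −0.45 but lost its call with no filter (adjusted p = 0.06), and over the samples left out singly its adjusted p reached 0.18. Leaving out each of the 6 samples singly, 5 to 6 of the 10 genes passed the threshold and 3 to 4 the 2-fold line, 9160 to 9553 and 2669 to 2745 of all genes did so, 54 to 58 genes of the other lists passed, and the median of the 10 lay between −0.01 and 0.07. The fitted changes then ranged from −1.11 to −0.80 for Slc2a1, 1.53 to 1.81 for Slc2a3, 0.34 to 0.49 for Slc2a8, −0.59 to −0.32 for Slc2a12, 0.06 to 0.15 for Slc16a1, −0.76 to −0.20 for Slc16a3, −0.12 to −0.02 for Hk1, −0.40 to 0.02 for Hk2, 1.33 to 1.56 for Txnip and 1.44 to 1.60 for Pfkfb3. Hk2 turned to 0.01 without WT sample 2 and to 0.02 without Setd5+/- sample 3. The cause of these moves was not tested.

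Same-numbered samples did not deviate together (correlations of −0.001, −0.03 and −0.016), so they share only a number. The fit with the replicate block called 9946 genes, 9853 of them among the 9963 called without it, and 6 of the 10 genes in both. The median of all genes was −0.019 as deposited, −0.059 with equal totals, −0.029 with the upper quartile and 0.024 with centring outside chromosome 1. No alternative replaces a second library per genotype, and depth limits Slc16a3 most.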
